A study of Rattus norvegicus with 6 samples.

Results

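The genes described here are 58 chromatin writers, erasers and remodellers, the enzymes and core subunits that place, remove or read marks on DNA and histones or move nucleosomes. Members were chosen by name and enzyme class, with earlier results of these data known. They were found by the single gene symbol of each probe set, with the brightest probe set standing for a gene. By this rule 51 of the 58 were measured, among 17245 genes tested. Suz12, Setdb1, Prdm16, Kmt2c, Kmt2d, Kdm6a and Kdm7a had no probe set of their own by this rule and are not analysed here.

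RNA came from neurospheres of neural stem and progenitor cells (NSPCs) isolated from adult rat hippocampus. The 3 A-NSPC cultures were actively proliferating cells kept for 4 days in fibroblast growth factor 2 (FGF2, 10 ng/ml), a mitogen. The 3 Q-NSPC cultures were quiescent cells kept for 4 days in FGF2 (10 ng/ml) with bone morphogenetic protein 4 (BMP4, 50 ng/ml), which halts their division. Each culture is labelled a biological replicate and was hybridized to 1 Affymetrix Rat Gene ST array, and no untreated or genetically modified group was compared.

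Chromatin enzymes work in opposing pairs. DNA methyltransferases add methyl groups to cytosine and TET dioxygenases oxidize them, Polycomb and H3K9 methyltransferases write repressive histone marks that demethylases take away, acetyltransferases open chromatin that deacetylases close, and remodellers use ATP to shift nucleosomes. In neural stem cells these enzymes are known for holding differentiation genes silent, and several of them, such as Dnmt1 and Ezh2, are known to be abundant in dividing cells, where marks are copied onto new DNA.

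Values are log2 intensities after robust multi-array average (RMA) processing, and each log2 fold change is the Q-NSPC mean less the A-NSPC mean, negative where a gene was lower in quiescence. The words rose and fell are kept for genes with an adjusted p under 0.05 in limma, a linear model fitted over all genes. RMA gives no detection call, the number of arrays limits the precision, and in these bulk samples fewer cells of a type and less RNA per cell cannot be told apart.

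Q-NSPC replicate 1 stood apart from the other quiescent cultures. Its distance (1 minus Pearson's r over all genes) was 0.0130 and 0.0109 to Q-NSPC replicates 2 and 3, which were 0.00539 apart, and 0.0109 to 0.0126 to the A-NSPC arrays. The list of 11 dividing cell markers had a mean level of 11.21 to 11.33 in A-NSPCs. In Q-NSPC replicate 1 that mean was 10.90, whereas the remaining quiescent cultures were at 9.82 and 10.00. Of these markers 7 fell and 0 rose. Mki67, which codes for the proliferation antigen Ki67, read 12.21, 12.28 and 12.29 in A-NSPCs and 12.02, 10.83 and 11.15 in Q-NSPCs (log2 fold change -0.92, limma adjusted p = 0.0529). Ccnd1, the cyclin of G1, fell by 1.37 on the log2 scale (limma adjusted p = 0.0231). Of 8 NSPC markers 1 rose, the transcription factor Pax6 (by 1.07, limma adjusted p = 0.00576), and 0 fell (3 at an unadjusted limma p under 0.05), with a mean list level of 10.08 to 10.29 in A-NSPCs and 9.74 to 10.29 in Q-NSPCs. Sox2, a transcription factor of neural stem cells, read 12.25, 12.29 and 12.30 in A-NSPCs and 12.55, 12.47 and 12.54 in Q-NSPCs (log2 fold change 0.24, limma adjusted p = 0.114), and Nes, the intermediate filament nestin, had a log2 fold change of -0.57 (0.0644). Of the other lists, 4 of 8 neuronal markers rose and 2 fell (mean list level 10.43 to 10.56 in A-NSPCs and 10.91 to 11.21 in Q-NSPCs), 1 of 6 astrocyte markers rose (Gfap, by 1.85, with a list level of 8.10 to 8.22 in A-NSPCs and 8.42 to 8.62 in Q-NSPCs), 2 of 7 oligodendrocyte lineage markers fell (list level 9.83 to 9.97 in A-NSPCs and 8.64 to 9.68 in Q-NSPCs), and none of 7 microglial and 4 vascular markers changed (1 and 0 of them at an unadjusted limma p under 0.05). Pax6 and Gfap are named after their values were seen. The part of these shifts in the results was not tested. Results are therefore also given without Q-NSPC replicate 1. That array was singled out from these same values, and its removal narrows the Q-NSPC spread in genes where it lay apart. The limma p-values without it are thus descriptions and not independent support.

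Of the 51 measured members 10 rose, namely Kat6b, Smarca2, Tet2, Arid1b, Kdm6b, Ehmt2, Kdm5b, Kmt2e, Eed and Crebbp, and 1 fell, Suv39h2. Eed is counted here by its brighter probe set. Its second probe set went the other way (log2 fold change -0.56, limma adjusted p = 0.0125), so its direction is not settled. Among all genes 7.91% rose and 6.20% fell (14.1% in either direction), against 19.6% and 1.96% of the members. Since the list was chosen with earlier results of these data known, these shares are a description and not a test. Members were bright, with a median level at the 82.1 percentile of all genes. With genes of the lowest quartile of intensity left out, 11.8% of genes rose and 9.50% fell, and 11 and 2 members did. The median log2 fold change was 0.12 over the members and 0.01 over all genes. The arrays of the groups did not overlap in 20 members that were higher in every Q-NSPC array, beside 18.7% of all genes, and in 6 that were lower in every one, beside 15.3% of all genes. Without Q-NSPC replicate 1, 14 members rose (27.5%, beside 12.7% of all genes) and 6 fell (11.8%, beside 10.9% of all genes), so that the share that fell was then near the background.

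**Figure D1:**
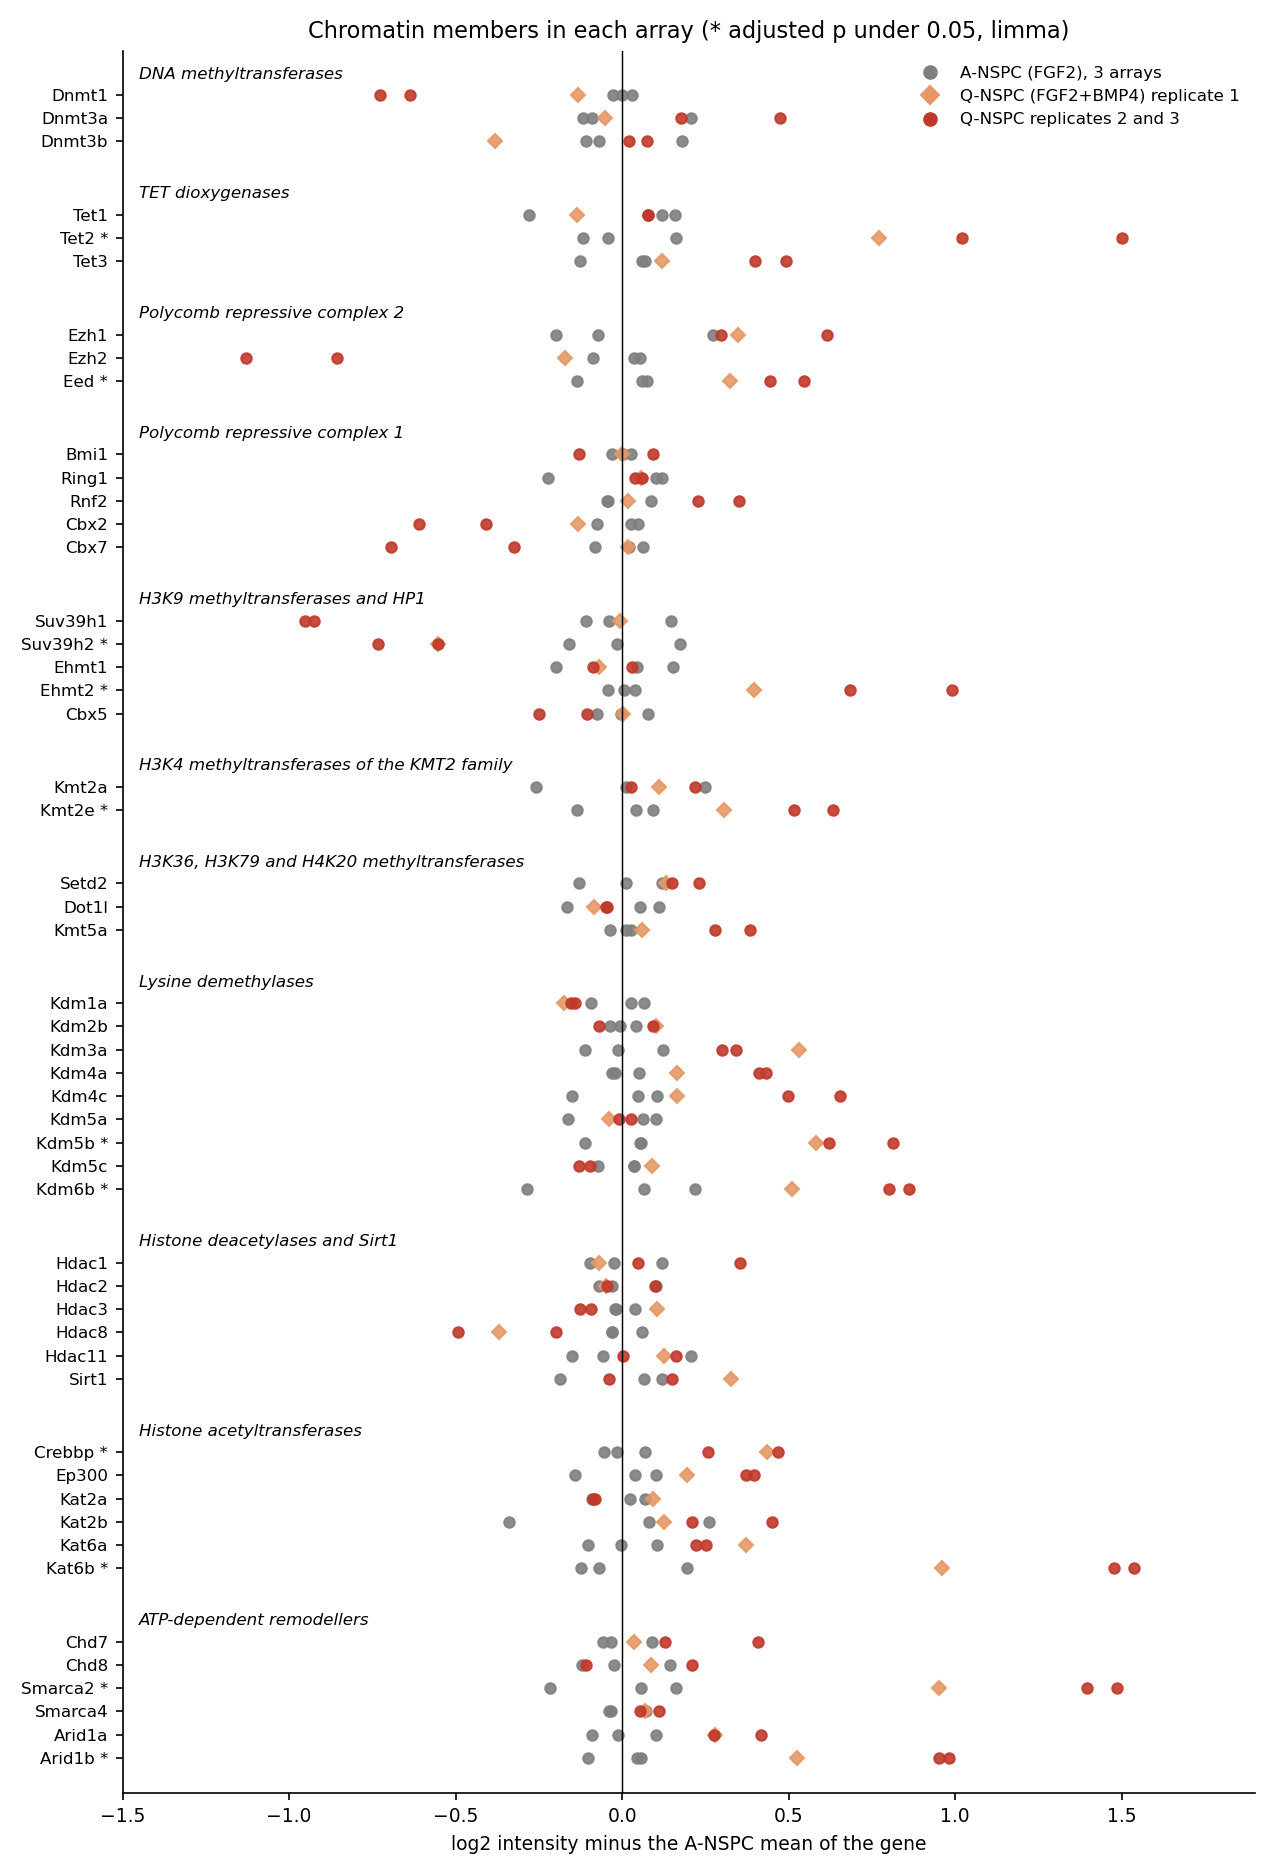
Log2 intensity of each of the 51 measured members in each array, minus the A-NSPC mean of that gene, grouped by enzyme class. Grey points are the 3 A-NSPC arrays, orange diamonds Q-NSPC replicate 1 and red points Q-NSPC replicates 2 and 3. Asterisks mark the 10 members that rose and the 1 that fell (limma adjusted p under 0.05). Eed is shown by its brighter probe set, and its second probe set went the other way.

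Of the 17 members below their A-NSPC means, 4 are shown first with the sequence around their start sites, since Dnmt1 and Ezh2 are known from dividing cells. A pair of short motifs known from cell cycle promoters were searched on both strands. These are the E2F site (any of TTTCCCGC, TTTCGCGC, TTTGCCGC and TTTGGCGC) and the cell cycle homology region, CHR (TTTGAA), which have no site in common. RefSeq promoter windows (rat build GRCr8, 300 bases, 250 before and 50 after the start) were found for 41 of the 51 measured members. An E2F word stood in 4 of these 41 members (9.76%) and in 3.26% of the 14117 tested genes with a window (2.14% of all windows). A CHR word also stood in 4 members (9.76%), and in 16.3% of the tested genes with a window (18.3% of all windows). The median GC content was 64.0% in the windows of the members, 57.7% in those of the tested genes and 51.7% in all windows. The motif shares were not corrected for GC content, so they do not show that either motif is enriched or depleted in the members. The 4 sequences below are those of Dnmt1, Ezh2 and Kdm1a, each lower in every Q-NSPC array and holding an E2F word, and of Suv39h2, which fell. Dnmt1, Ezh2 and Kdm1a did not pass the test (limma adjusted p = 0.0688, 0.0632 and 0.313) and were picked for holding the word. All 4 sequences run 5′ to 3′ on the strand of the gene, 50 bases to each side of the start, with the motif in capitals.
Dnmt1: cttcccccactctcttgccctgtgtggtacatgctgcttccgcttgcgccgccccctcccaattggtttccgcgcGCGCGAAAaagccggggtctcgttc
Ezh2: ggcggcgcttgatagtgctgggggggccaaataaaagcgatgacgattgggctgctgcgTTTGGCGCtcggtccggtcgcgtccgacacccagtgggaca
Kdm1a: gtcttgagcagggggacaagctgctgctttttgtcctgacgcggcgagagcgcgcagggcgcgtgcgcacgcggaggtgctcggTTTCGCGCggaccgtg
Suv39h2: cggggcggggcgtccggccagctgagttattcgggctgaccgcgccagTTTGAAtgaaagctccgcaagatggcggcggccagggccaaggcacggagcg
They lie at chr8:27762792-27762891 (minus strand, Dnmt1), chr4:77687134-77687233 (minus strand, Ezh2), chr5:154121726-154121825 (minus strand, Kdm1a) and chr17:79665417-79665516 (plus strand, Suv39h2). The E2F word begins 26 bases after the start in Dnmt1, where it lies on the reverse strand, 10 after it in Ezh2 and 35 after it in Kdm1a. The fourth member with an E2F word was Arid1a, which was higher in every Q-NSPC array. The other members with a CHR word were Hdac8, with 4 sites and lower in every Q-NSPC array, Cbx7, and Kat6b in 1 of its windows. A match is a description of these letters and not evidence that a factor binds them.

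Of the 3 TET dioxygenases Tet2 rose, and none of the 3 DNA methyltransferases passed the test (1, Dnmt1, had an unadjusted limma p under 0.05). Tet2, which oxidizes methylcytosine to hydroxymethylcytosine, read 9.31, 9.59 and 9.38 in A-NSPCs and 10.20, 10.93 and 10.45 in Q-NSPCs. All Q-NSPC arrays lay above all A-NSPC arrays, and Tet2 rose by 1.10 on the log2 scale (SE 0.18, 2.14-fold, limma adjusted p = 0.0109). The call was lost without A-NSPC replicate 1 (limma adjusted p = 0.0606) and without A-NSPC replicate 3 (0.0543). Tet3 was higher in every Q-NSPC array without passing the test (log2 fold change 0.34, limma adjusted p = 0.110, and 0.0215 without Q-NSPC replicate 1), while Tet1 differed by 0.01 (95% confidence interval -0.31 to 0.33).

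Dnmt1, the maintenance methyltransferase that copies methylation onto new strands, read 11.82, 11.85 and 11.79 in A-NSPCs and 11.69, 11.09 and 11.18 in Q-NSPCs. Every Q-NSPC array was below every A-NSPC array, but replicate 1 only slightly, and the log2 fold change of -0.50 (SE 0.16) did not pass the test (limma adjusted p = 0.0688). Without Q-NSPC replicate 1 it was -0.68 (limma adjusted p = 0.00184). The de novo methyltransferases Dnmt3a and Dnmt3b differed by 0.20 and -0.10 and overlapped between groups.

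In Polycomb repressive complex 2, which methylates H3K27, the catalytic paralogues lay on opposite sides. Ezh2 read 10.92, 11.06 and 11.04 in A-NSPCs and 10.83, 9.88 and 10.15 in Q-NSPCs. Here too the groups were apart and Q-NSPC replicate 1 lay close to the A-NSPCs, with a log2 fold change of -0.72 (SE 0.22, limma adjusted p = 0.0632), and of -0.99 without that array (limma adjusted p = 0.000749). Ezh1, the paralogue known from non-dividing tissues, was above its A-NSPC level in every Q-NSPC array (log2 fold change 0.42, SE 0.15, limma adjusted p = 0.0966).

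Eed, the subunit that binds methylated H3K27, read 10.12, 10.10 and 9.91 in A-NSPCs and 10.37, 10.49 and 10.59 in Q-NSPCs on its brighter probe set. This probe set rose by 0.44 (SE 0.11, limma adjusted p = 0.0337), but the second probe set of Eed went the other way. It read 9.91, 9.75 and 9.83 in A-NSPCs and 9.31, 9.20 and 9.32 in Q-NSPCs (log2 fold change -0.56, limma adjusted p = 0.0125). The groups were apart on both probe sets, in opposite directions, so these arrays give Eed no settled direction. Without any 1 array other than Q-NSPC replicate 1 the call on the brighter probe set was lost (limma adjusted p from 0.0687 to 0.126).

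None of the 5 measured members of Polycomb repressive complex 1, which ubiquitinates H2A and compacts chromatin, passed the test. Cbx2, a chromodomain subunit, came closest and was the 1 member with an unadjusted limma p under 0.05. It read 10.07, 9.94 and 10.04 in A-NSPCs and 9.89, 9.61 and 9.41 in Q-NSPCs, with groups apart (log2 fold change -0.38, SE 0.13, limma adjusted p = 0.0923). Without Q-NSPC replicate 1 the test was passed by Cbx2 (limma adjusted p = 0.0122) and by Cbx7, another chromodomain subunit (0.0259, against 0.235 with all arrays). The ligases Ring1 and Rnf2 and their partner Bmi1 differed by 0.05, 0.20 and -0.01.

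The H3K9 methyltransferases held the only member that fell and 1 that rose. Suv39h2, which trimethylates H3K9 in heterochromatin, read 9.13, 8.94 and 8.80 in A-NSPCs and 8.40, 8.40 and 8.22 in Q-NSPCs. The 3 Q-NSPC arrays were low together, replicate 1 included, and Suv39h2 fell by 0.61 (SE 0.12, limma adjusted p = 0.0160). The call was lost without A-NSPC replicate 1 (limma adjusted p = 0.0697) and without Q-NSPC replicate 3 (0.0732). Its paralogue Suv39h1 read 9.62, 9.81 and 9.55 in A-NSPCs and 9.66, 8.74 and 8.71 in Q-NSPCs, so that replicate 1 lay within the A-NSPC range while the other Q-NSPC arrays were low. Its log2 fold change was -0.63 (SE 0.24, limma adjusted p = 0.122), and -0.94 without Q-NSPC replicate 1 (0.000762).

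Ehmt2, known as G9a, which dimethylates H3K9 in euchromatin, read 9.06, 9.03 and 8.98 in A-NSPCs and 9.42, 10.01 and 9.71 in Q-NSPCs. It rose by 0.69 (SE 0.15, limma adjusted p = 0.0226), with groups apart. Its partner Ehmt1 differed by -0.04 (95% confidence interval -0.31 to 0.22). The heterochromatin protein Cbx5 (HP1 alpha) differed by -0.12 and overlapped between groups. The Ehmt2 call held only with all arrays or without Q-NSPC replicate 1 and was lost on leaving out any other array (limma adjusted p from 0.0564 to 0.0864).

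Among the measured members of the KMT2 family, grouped here under H3K4 methylation, Kmt2e carries a PHD finger and a SET domain. Its place in this class does not show that it methylates H3K4 itself. Kmt2e read 11.10, 10.92 and 11.15 in A-NSPCs and 11.36, 11.58 and 11.69 in Q-NSPCs. The groups were apart and Kmt2e rose by 0.49 (SE 0.12, limma adjusted p = 0.0336). This call too was lost on leaving out any array other than Q-NSPC replicate 1 (limma adjusted p from 0.0791 to 0.126). Kmt2a, the founding member of the family, overlapped between groups (log2 fold change 0.12). Of the 3 methyltransferases of other lysines none passed, and 0 had an unadjusted limma p under 0.05. Kmt5a, the H4K20 monomethyltransferase, read 12.63, 12.56 and 12.61 in A-NSPCs and 12.66, 12.88 and 12.98 in Q-NSPCs (log2 fold change 0.24, limma adjusted p = 0.187, and 0.0482 without Q-NSPC replicate 1). Every Q-NSPC array was higher, by little in replicate 1. Setd2, which trimethylates H3K36, differed by 0.17 with groups apart, and Dot1l, the H3K79 methyltransferase, by -0.06 with overlap.

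Of 9 measured lysine demethylases 2 rose and 0 fell. Kdm5b, which removes H3K4 methylation, read 10.30, 10.46 and 10.47 in A-NSPCs and 10.99, 11.03 and 11.22 in Q-NSPCs. The Q-NSPC arrays lay close together and above all A-NSPC arrays, and Kdm5b rose by 0.67 (SE 0.11, limma adjusted p = 0.00951, and 0.0521 without A-NSPC replicate 1). Kdm6b, which removes the H3K27 mark that PRC2 writes, read 10.12, 9.61 and 9.96 in A-NSPCs and 10.41, 10.76 and 10.70 in Q-NSPCs. It rose by 0.72 (SE 0.15, limma adjusted p = 0.0223) with groups apart, and the call was lost on leaving out any array other than Q-NSPC replicate 1 (limma adjusted p from 0.0538 to 0.0924).

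The H3K9 demethylases Kdm3a, Kdm4a and Kdm4c were each higher in every Q-NSPC array, with log2 fold changes of 0.39, 0.34 and 0.44, and did not pass the test (limma adjusted p = 0.0504, 0.0715 and 0.0779). Without Q-NSPC replicate 1, Kdm4a and Kdm4c passed (limma adjusted p = 0.0168 and 0.00968) and Kdm3a did not (0.0747). Kdm1a (LSD1), which removes mono- and dimethylation of H3K4, was the only demethylase lower in every Q-NSPC array (log2 fold change -0.16, limma adjusted p = 0.313). Kdm2b, Kdm5a and Kdm5c overlapped between groups, at 0.04, -0.01 and -0.05.

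None of the 6 measured deacetylases passed the test, and the class I enzymes of the large corepressor complexes overlapped between groups. Their log2 fold changes were 0.11 for Hdac1 (95% confidence interval -0.19 to 0.41), 0.00 for Hdac2 (-0.23 to 0.23) and -0.04 for Hdac3 (-0.27 to 0.19). Changes within these intervals are not excluded. Hdac8, a class I enzyme outside those complexes, read 8.88, 8.88 and 8.96 in A-NSPCs and 8.54, 8.41 and 8.71 in Q-NSPCs. It was the 1 deacetylase with an unadjusted limma p under 0.05, and the groups were apart, with a log2 fold change of -0.35 (SE 0.11, limma adjusted p = 0.0613). Hdac11 and the NAD-dependent deacetylase Sirt1 differed by 0.10 and 0.15 and overlapped.

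Of the 6 acetyltransferases 2 rose. Kat6b (MORF), a catalytic subunit of an H3 acetyltransferase complex, read 10.57, 10.89 and 10.62 in A-NSPCs and 11.66, 12.17 and 12.23 in Q-NSPCs. It rose by 1.32 (SE 0.17, 2.51-fold, limma adjusted p = 0.00499), the largest change among the members, and it passed the test whichever single array was left out (limma adjusted p from 0.000126 to 0.0356). Its paralogue Kat6a was also higher in every Q-NSPC array, without passing (log2 fold change 0.28, limma adjusted p = 0.102). Crebbp (CBP), a coactivator that acetylates H3K27, read 10.81, 10.77 and 10.90 in A-NSPCs and 11.26, 11.08 and 11.29 in Q-NSPCs. It rose by 0.39 (SE 0.10, limma adjusted p = 0.0399), and its second probe set by 0.52 (limma adjusted p = 0.0164), both with groups apart. The call on the brighter probe set was lost on leaving out any 1 array (limma adjusted p from 0.0504 to 0.143). Ep300, the paralogue of Crebbp, had a log2 fold change of 0.32 with groups apart (limma adjusted p = 0.0877, and 0.0416 without Q-NSPC replicate 1), and Kat2a and Kat2b overlapped, at -0.02 and 0.26.

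Remodellers were above their A-NSPC means in 6 of 6 members, of which 2 rose. The same sign was seen in 9062 of all 17245 genes and in 23 of 40 other remodeller subunits. Smarca2 (BRM), 1 of the alternative ATPases of the BAF complex, read 9.12, 9.39 and 9.50 in A-NSPCs and 10.29, 10.82 and 10.73 in Q-NSPCs. It rose by 1.28 (SE 0.16, 2.43-fold, limma adjusted p = 0.00514) and passed the test whichever single array was left out (limma adjusted p from 0.000202 to 0.0318). Smarca4 (BRG1), the other ATPase, differed by 0.08 (95% confidence interval -0.13 to 0.28). Arid1b, a DNA-binding subunit of the same complex, read 9.94, 10.10 and 10.09 in A-NSPCs and 10.57, 10.99 and 11.02 in Q-NSPCs. It rose by 0.82 (SE 0.14, limma adjusted p = 0.0118) with groups apart, and lost the call without A-NSPC replicate 1 (limma adjusted p = 0.0621), A-NSPC replicate 3 (0.0508) or Q-NSPC replicate 3 (0.0559). Its alternative Arid1a was higher in every Q-NSPC array (log2 fold change 0.33, limma adjusted p = 0.0649). The CHD remodellers Chd7 and Chd8 overlapped, at 0.19 and 0.06.

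**Figure D2:**
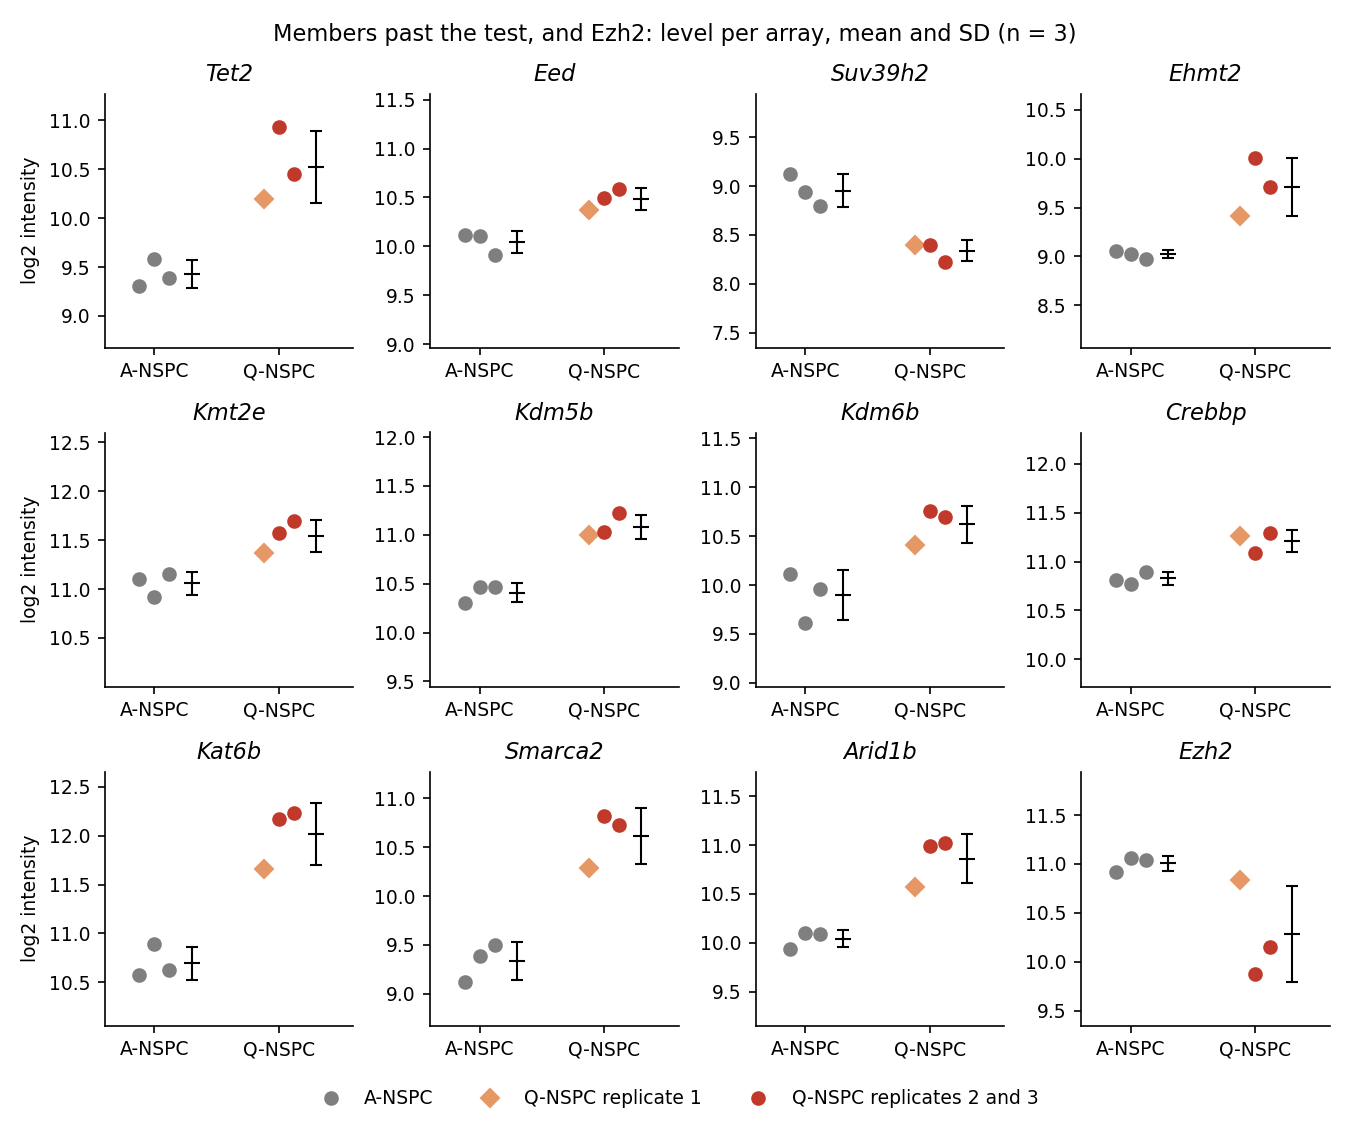
Log2 intensity per array of the 11 members that passed the test and of Ezh2, with the mean and SD of each group (n = 3). A-NSPC points are grey, Q-NSPC replicate 1 is the orange diamond and Q-NSPC replicates 2 and 3 are red. The groups do not overlap in any of these genes. Eed is shown by its brighter probe set, and its second probe set went the other way.

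The balance between paralogues was compared within arrays, as the log2 ratio of the first gene to the second. This cancels only a shift of equal size in both genes, and of 13 pairs 6 had groups that did not overlap. The share of such pairs among genes at large was not computed. Of single genes, 18.7% were higher and 15.3% lower in every Q-NSPC array. The ratio of Smarca2 to Smarca4 was 1.20 higher in Q-NSPCs (SE 0.20) and that of Ezh1 to Ezh2 was 1.14 higher (SE 0.37). The ratios of Kat6a to Kat6b, Ehmt1 to Ehmt2, Kdm5a to Kdm5b and Arid1a to Arid1b differed by -1.04 (SE 0.23), -0.73 (SE 0.21), -0.68 (SE 0.14) and -0.49 (SE 0.15), each in favour of the gene that rose. In all but Ezh1 to Ezh2 the ratio largely restates a rise already called in the same arrays. With 3 arrays against 3 the exact two-sided permutation test cannot go below 0.1, the value each of these 6 pairs reached (0.217 adjusted over the 13 pairs). The other 7 pairs overlapped, among them Crebbp to Ep300 (difference 0.06, SE 0.12), Hdac1 to Hdac2 (0.11, SE 0.13) and Suv39h1 to Suv39h2 (-0.02, SE 0.31), in the last of which Q-NSPC replicate 1 was the highest array.

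**Figure D3:**
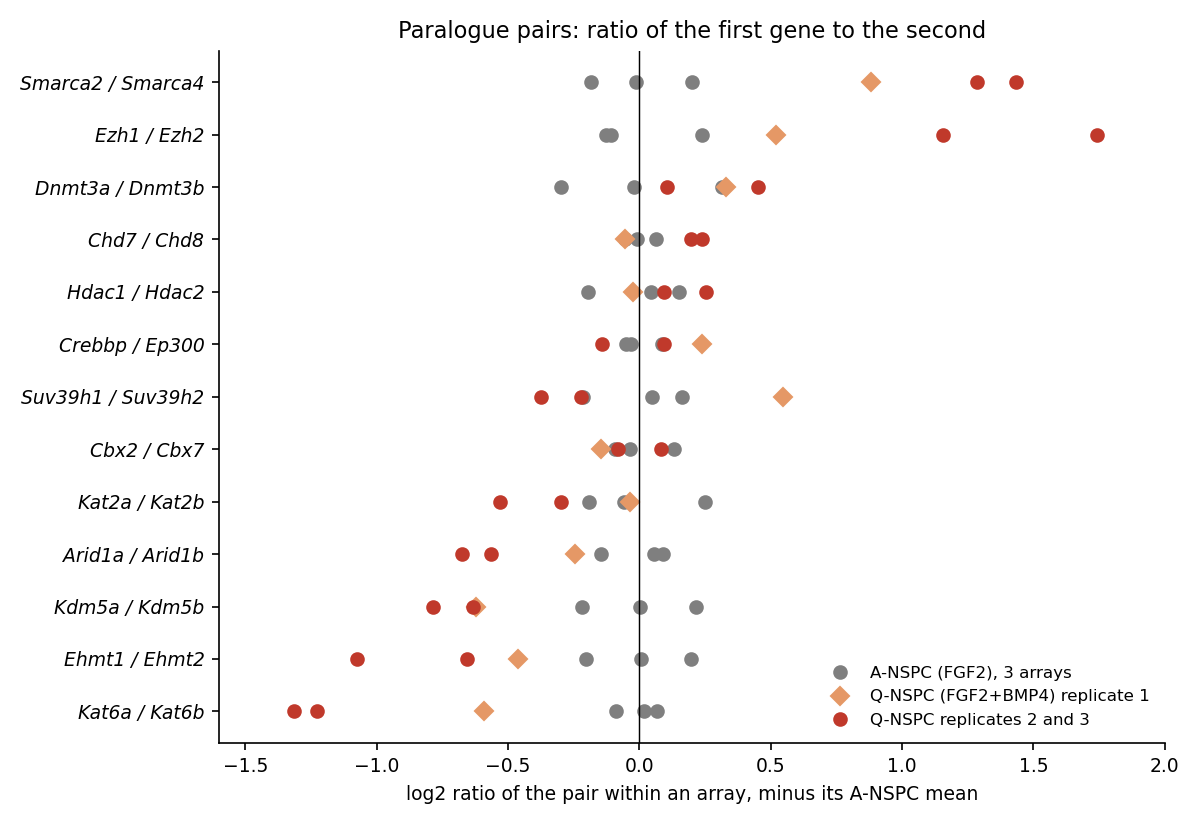
Log2 ratio of the first to the second paralogue in each array, minus the A-NSPC mean of that ratio, for 13 pairs. Smarca2 over Smarca4 and Ezh1 over Ezh2 lie to the right in all Q-NSPC arrays, and 4 ratios (Arid1a, Kdm5a, Ehmt1 and Kat6a over their paralogues) lie to the left.

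How far Q-NSPC replicate 1 lay from its group varied between genes. Its position was measured as the percent of the way from the A-NSPC mean to the mean of Q-NSPC replicates 2 and 3, in members where those means were at least 0.4 apart. For the 13 members that were higher in replicates 2 and 3 the median position was 61.1% (27.0% to 81.2%). For the 6 that were lower it was 18.3%, beside 21.3% for the 11 dividing cell markers and 33.4% for 31 lower genes among the other chromatin genes described below. Low positions were also seen in oligodendrocyte lineage markers, from 3.81% (Mog) to 37.0% (Pdgfra) where the means were at least 0.4 apart. Among those 6, Cbx7 (-3.24%), Suv39h1 (0.573%), Ezh2 (17.4%), Dnmt1 (19.3%) and Cbx2 (25.8%) were near the A-NSPC level, and Suv39h2 (86.3%) was near the quiescent one. Over all genes the median was 49.2% for those that were higher and 41.0% for those that were lower. These positions are a description with no test, since the direction was taken from the same arrays.

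**Figure D4:**
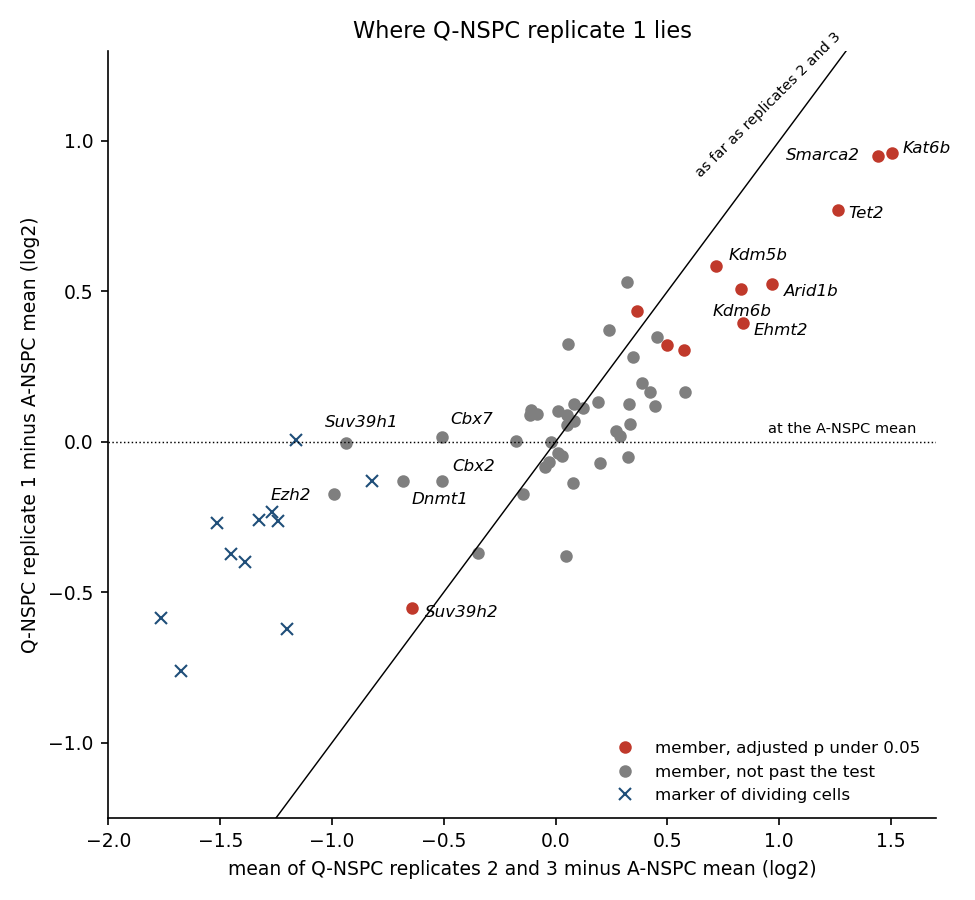
Each member's difference from the A-NSPC mean in Q-NSPC replicate 1 (vertical axis, log2) against that in the mean of Q-NSPC replicates 2 and 3 (horizontal axis, log2), with the dividing cell markers as crosses. On the diagonal replicate 1 moved as far as the others and on the dotted line it stayed at the A-NSPC mean; Ezh2, Dnmt1, Suv39h1, Cbx2 and Cbx7 lie near the dotted line and Suv39h2 near the diagonal.

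Around the members, 162 of 184 listed partners, other family members and histone chaperones were measured. Of these 14 rose (8.64%, beside 7.91% of all genes) and 16 fell (9.88%, beside 6.20% of all genes). The share that rose was thus near the background. Histone chaperones, which deliver histones to DNA, held the most that fell, 6 of 12, with a median log2 fold change of -0.56. Asf1b, which hands over H3 and H4, fell by 1.02 (limma adjusted p = 0.0285), and Anp32e, which removes H2A.Z, by 0.96 (0.0212). These falls went with the dividing cell markers given above, and their part was not tested. Of 7 arginine methyltransferases 3 fell and 0 rose, among them Prmt3 (by 0.79, limma adjusted p = 0.0264) and Prmt7 (by 0.59, 0.0269).

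Among the partners of DNA methylation, Uhrf1, which brings Dnmt1 to hemimethylated DNA, read 10.62, 10.61 and 10.53 in A-NSPCs and 10.11, 8.81 and 9.13 in Q-NSPCs. It fell by 1.24 (SE 0.29, limma adjusted p = 0.0284), with Q-NSPC replicate 1 nearest to the A-NSPCs as for Dnmt1. Zbtb33 (Kaiso), a methyl-CpG reader, rose by 0.34 (limma adjusted p = 0.0490). In heterochromatin, the lamin B receptor Lbr fell by 1.20 (limma adjusted p = 0.00971) and lamin B1, Lmnb1, by 0.85 (0.0459). Of the other Polycomb subunits Scmh1 rose by 0.54 (limma adjusted p = 0.0274) and Pcgf6 fell by 0.74 (0.0334).

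Dpy30, a core COMPASS subunit that the KMT2 enzymes need, fell by 0.51 (limma adjusted p = 0.0288). The H4K20 methyltransferases Kmt5b and Kmt5c, which act after Kmt5a, moved apart, Kmt5b rising by 0.52 (limma adjusted p = 0.0456) and Kmt5c falling by 0.42 (0.0381). Leaving out any array other than Q-NSPC replicate 1 lost the Kmt5c call (limma adjusted p from 0.0897 to 0.125). The Kmt5b call outlasted only the omission of A-NSPC replicate 3 or Q-NSPC replicate 1. Hdac6, a deacetylase of cytoplasmic tubulin, rose by 0.68 (limma adjusted p = 0.0129), the demethylase Phf8 by 0.46 (0.0494), and the nuclear receptor coactivators Ncoa2 and Ncoa1 by 0.80 (0.0112) and 0.49 (0.0273). Of 40 other remodeller subunits 3 rose and 1 fell. Actl6b, the BAF53b subunit known from neuronal BAF complexes, rose by 1.09 from a dim level (limma adjusted p = 0.00965), beside the neuronal marker list given above, and Baz2b, a bromodomain protein, rose by 0.75 (0.00971). The others, named after their values were seen, were Chd3, a NuRD ATPase, which rose by 1.02 (limma adjusted p = 0.0271), and Hells, a remodeller needed for DNA methylation of repeats, which fell by 1.48 (0.0246).

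The counts of calls moved with single arrays. Leaving out A-NSPC replicate 1, 2 or 3 left 2, 5 and 3 members that rose and 0, 1 and 1 that fell, and leaving out Q-NSPC replicate 1, 2 or 3 left 14, 5 and 4 that rose and 6, 1 and 0 that fell. Among the related genes the same omissions left 1, 5, 3, 21, 4 and 3 that rose and 0, 2, 0, 30, 2 and 0 that fell. Calls over all genes moved in the same direction, with 12.7% that rose and 10.9% that fell without Q-NSPC replicate 1, and 1.84% to 4.05% and 0.591% to 2.89% on leaving out any other array. Kat6b and Smarca2 were the members that passed under every one of these omissions, and Actl6b was the only related gene that did. The calls of the other related genes named above were thus each lost on leaving out at least 1 array.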

How the data were processed

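Total RNA of 3 A-NSPC and 3 Q-NSPC cultures was hybridized to 1 array each, and groups and replicate numbers were taken from the sample labels. The deposited values are log2 intensities that the authors made by RMA, which corrects background, equalizes the arrays' distributions by quantiles and summarizes probes, with Affymetrix Expression Console and Partek 6.10 named in the submitters' processing notes. Scan files were not used here. The array medians were 7.53 to 7.57.

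Of 29214 probe sets, 18644 carry 1 gene symbol in the platform annotation, 962 several and 9608 none. Symbols of 18460 were looked up by Entrez number, with 0 changed. Of the 17245 genes, 879 had several probe sets and were represented by the brightest on average over the 6 arrays. Dim genes were kept.

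Differences were tested with limma 3.58.1 in R 4.3.3 (lmFit, a mean per group, eBayes, two-sided, Benjamini-Hochberg adjustment over all genes, threshold 0.05). Paralogue ratios were compared by exact permutation over the 20 assignments of arrays. The code was tested on simulated data. The members and lists were chosen with earlier results of these data known. All members may be named, those past the threshold and the member with the smallest p of each class with every array; of related genes up to 2 per class past the threshold are named, and of the markers Mki67, Ccnd1, Sox2 and Nes. Alternatives were a replicate block, other probe set rules, a filter on dim genes, other eBayes settings, renewed quantile normalization, array weights, unmoderated tests as the methods of the study describe, and leaving out each array. Sequences come from RefSeq promoter windows (GRCr8), whose coordinates are independent of the arrays.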

Additional observations from a re-analysis of the deposited data

How the results depend on the processing

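The 10 members that rose and 1 that fell became 10 or 11 and 1 or 2 under other probe set rules, other eBayes settings, renewed quantile normalization and a filter on dim genes, which gave the 2 that fell. Array weights, which gave Q-NSPC replicate 1 a weight of 0.46 and the others 0.91 to 1.36, gave 16 members that rose and 5 that fell, and 24 and 28 related genes in place of 14 and 16, while 12.6% of all genes rose and 10.8% fell in that fit (members 31.4% and 9.80%). The study's methods name unpaired and paired unmoderated t tests but do not say what was used for the arrays. After Benjamini-Hochberg adjustment both forms gave 0 of each in both sets. Of all 17245 genes the unpaired form called 0 and the paired form 1, so these counts are no trait of the members. At an unadjusted p under 0.05 the unpaired form gave 15 and 3 members and the paired form 7 and 2. Limma gave 18 and 6, beside 2800 and 2290 of all 17245 genes. The unadjusted shares over all genes are not given here for the unmoderated forms. Leaving out 1 array gave 2 to 14 members that rose and 0 to 6 that fell, and 1 to 21 and 0 to 30 related genes. These fits have fewer arrays, and without Q-NSPC replicate 1 the counts were highest.

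The replicate numbers gave no sign of pairing the cultures, since same-numbered arrays did not deviate together (r = -0.05, 0.01 and -0.03). With the numbers as a replicate block 7 members rose (13.7%) and 1 fell (1.96%), beside 6.34% and 5.51% of all genes. Eed, Kmt2e and Crebbp were then no longer past the threshold (limma adjusted p = 0.0725, 0.0510 and 0.0652). In the same fit 9 related genes rose (5.56%) and 16 fell (9.88%). Eed alone of the called members changed sign, to -0.0593 with the mean of its probe sets, as the opposite directions of these probe sets entail. Of the 40 members not called 12 changed sign in at least 1 alternative.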
